A study of Homo sapiens and Mus musculus with 6 samples.

Results

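The promoters of 10 LIM homeobox genes were examined in mouse embryonic stem cells (mESCs): Lhx1, Lhx2, Lhx3, Lhx4, Lhx5, Lhx6, Lhx8, Lhx9, Isl1 and Lmx1b. A call was taken as theirs when 1 of these symbols was listed at either end, and each gene had exactly 1 captured restriction fragment among the 17157 captured fragments in the mESC list. The 10 genes are drawn from 17014 gene symbols in that list, and they took part in 214 of its 101841 calls, 3 of which joined 2 of the genes and were counted under both when genes are described singly. In the human list, 7 of the same 10 symbols occurred, in 23 of 92929 calls.

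LIM homeodomain proteins bind DNA through a homeodomain and recruit cofactors such as Ldb1 through a pair of zinc-finger LIM domains. They specify cell types during development, among them spinal motor neurons, pituitary cells, forebrain neurons, kidney and limb cells, and they are generally silent in pluripotent cells. Several exist as close paralogues, Lhx1 with Lhx5, Lhx2 with Lhx9, Lhx3 with Lhx4 and Lhx6 with Lhx8.

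Promoter Capture Hi-C ligates DNA ends that lie near each other in fixed nuclei, enriches the ligation products for promoter-containing HindIII fragments (baits) with RNA probes, and sequences them. The mESCs were of the J1 line (strain 129S4/SvJae), expanded on irradiated embryonic fibroblasts in serum, with the feeder cells taken out by passaging before harvest (2 biological replicates). GM12878 is a human lymphoblastoid line of B-lymphocyte type grown in suspension (3 biological replicates), and 1 Hi-C library was made from mESCs before capture. No cells received a drug or genetic change, and all were fixed with formaldehyde. The authors called contacts jointly on all replicates of a cell type, so each cell type is a single set of calls with no spread between samples, and no p-value is given. A contact carries a read number, a weighted mean over replicates rounded to a whole number, and a CHiCAGO score, which grows with the evidence against random collision and is at least 5 in these lists. Contact data carry no expression level, so cell type markers could not be checked. Intervals are 95% Wilson intervals for counting error alone. Adjacent fragments of a contact, and the 2 calls of a pair called from both baits, are not independent observations.

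Promoter sequences are shown first for some of the contacts described below, for Tbx3, the partner in the contact with the highest score, for Lhx1 and its partner Tbx2, and for the paralogues Lhx2 and Lhx9, which contacted promoters or gene bodies of further paralogues. Each is the 250 bases before the outermost annotated start in mm9, read 5′ to 3′ on the gene's strand, with CG dinucleotides in capitals. The windows lie at chr5:120120428-120120677 (Tbx3, plus strand), chr11:84338924-84339173 (Lhx1, minus), chr11:85645803-85646052 (Tbx2, plus), chr2:38194551-38194800 (Lhx2, plus) and chr1:140745154-140745403 (Lhx9, minus).
Tbx3: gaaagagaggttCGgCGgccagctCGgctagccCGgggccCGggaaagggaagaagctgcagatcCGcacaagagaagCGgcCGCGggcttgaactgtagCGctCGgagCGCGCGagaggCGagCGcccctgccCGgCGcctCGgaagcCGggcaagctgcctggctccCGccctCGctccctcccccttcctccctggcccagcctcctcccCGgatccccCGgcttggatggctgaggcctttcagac
Lhx1: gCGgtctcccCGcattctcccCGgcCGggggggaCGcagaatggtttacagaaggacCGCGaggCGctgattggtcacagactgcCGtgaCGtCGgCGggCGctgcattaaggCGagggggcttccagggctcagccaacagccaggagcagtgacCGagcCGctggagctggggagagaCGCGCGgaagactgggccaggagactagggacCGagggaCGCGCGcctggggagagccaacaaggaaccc
Tbx2: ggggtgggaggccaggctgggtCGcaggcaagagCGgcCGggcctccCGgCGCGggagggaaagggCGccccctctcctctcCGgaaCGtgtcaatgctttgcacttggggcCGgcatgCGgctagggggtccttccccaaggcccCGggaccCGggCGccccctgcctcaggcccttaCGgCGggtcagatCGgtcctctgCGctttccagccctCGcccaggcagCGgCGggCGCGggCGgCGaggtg
Lhx2: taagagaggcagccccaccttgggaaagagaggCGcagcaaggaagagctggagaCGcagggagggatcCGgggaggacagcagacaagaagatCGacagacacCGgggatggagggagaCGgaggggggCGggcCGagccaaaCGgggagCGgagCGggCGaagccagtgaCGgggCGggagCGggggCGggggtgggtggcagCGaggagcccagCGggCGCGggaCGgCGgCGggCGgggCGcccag
Lhx9: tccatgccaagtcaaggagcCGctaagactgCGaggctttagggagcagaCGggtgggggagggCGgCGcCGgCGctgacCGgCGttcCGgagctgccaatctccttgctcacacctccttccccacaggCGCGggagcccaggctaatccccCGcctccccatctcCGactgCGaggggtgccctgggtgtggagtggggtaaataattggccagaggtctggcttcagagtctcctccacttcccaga

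These windows are rich in CG dinucleotides: there are 24 in that of Tbx3, 23 in Lhx1, 25 in Tbx2, 25 in Lhx2 and 15 in Lhx9. Over the 10 LIM homeobox genes the median window held 15.5 CG dinucleotides and 65.4% G or C, against 8 and 54.0% over 22367 protein-coding genes. TAATTA, a core sequence that many homeodomain proteins recognise and that reads the same on both strands, was in none of the 10 windows and in 4.59% of all. The whole captured fragments of the 10 genes had a median of 35.5 CG dinucleotides per kb and 54.3% G or C, compared with 16.9 per kb and 47.6% over all captured fragments listed. These values stand beside the contacts described next, and their part in them was not tested.

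The LIM homeobox promoters were joined to distant loci, often more than 1 Mb away. Of their calls, 40.7% (87 of 214, interval 34.3 to 47.3%) spanned more than 1 Mb in *cis* or joined different chromosomes, against 3.94% of all mESC calls. Among calls with at least 10 reads it was 19.4% (26 of 134, interval 13.6 to 26.9%), against 0.956% of all such calls. Calls over 10 Mb made up 20.6% (44 of 214, interval 15.7 to 26.5%), against 0.681% of all. A pair called from both baits enters these counts as 2 calls. With each of the 183 distinct fragment pairs counted once, 36.6% spanned over 1 Mb or joined chromosomes (interval 30.0 to 43.8%). The value for the whole list was not computed in that way. The median *cis* distance was 661 kb for the 10 genes and 139 kb for the whole list. The other homeobox promoters, 147 captured fragments with 3444 calls, were in between, with 21.5% over 1 Mb or in *trans* (interval 20.2 to 22.9%) and a median of 177 kb.

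Read as promoters rather than calls, 8 of the 10 LIM homeobox fragments had a *cis* call over 1 Mb and 6 a call over 10 Mb, against 7.75% and 1.4% of all captured fragments with a call and 57.8% and 38.1% of other homeobox fragments. The exceptions at 1 Mb were Lhx3 and Lhx4. A LIM homeobox fragment had a median of 15 calls, from 4 to 65, where the median was 4 over all captured fragments and 18 over other homeobox fragments. Lhx5 and Lhx1 were the 2 with at least 30 calls, a number reached by 4.86% of all fragments and 34.0% of other homeobox fragments. A score of at least 20 was found for 21.5% of the calls (46 of 214), against 2.84% of all and 18.3% of calls at other homeobox promoters. Lhx5 supplied 26 of the 46, and the share was 13.4% (20 of 149, interval 8.86 to 19.8%) without Lhx5 and 9.43% (10 of 106) without Lhx1 and Lhx5. Promoters counted here and below are captured fragments, including captured ultraconserved elements labelled uce. A captured promoter was at the other end of 38.8% of the calls (83 of 214), but calls made from a partner's bait have a captured partner by selection. With the LIM homeobox fragment as the bait it was 22.9% (39 of 170, interval 17.3 to 29.8%), below the 36.3% of all calls.

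**Figure D1:**
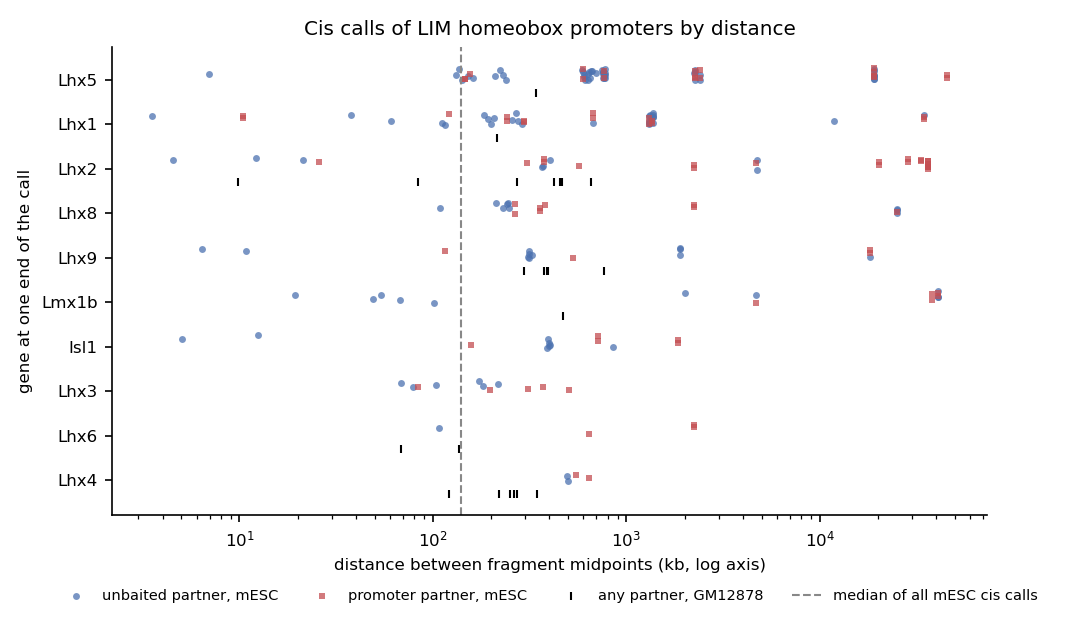
Distance in kb (log axis) between the fragment midpoints of every *cis* call, by LIM homeobox gene, in mESCs (circles, unbaited partner; squares, promoter partner) and GM12878 (black ticks, 1 call each); the dashed line is the median of all mESC *cis* calls, 139 kb. The calls of most genes form tight groups separated by wide gaps, the farthest at 45.4 Mb for Lhx5, and no GM12878 call lies beyond 1 Mb.

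Lhx5, a regulator of forebrain and hippocampal development, had the most calls, 65. Of its *cis* calls, 52 lay upstream and 12 downstream. The contact with the highest score of all 214 joined Lhx5 to the promoter of Tbx3, a T-box transcription factor of limb, heart and mammary development, 762 kb upstream with 165 reads. It scored 171 from the Lhx5 bait and 34.4 from the Tbx3 bait.

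The Tbx5 promoter, that of the forelimb and heart T-box gene, was joined to Lhx5 over 600 kb by 73 reads, with scores of 62.6 and 64.3 from the 2 ends. Both T-box genes lay in a contact region of 193 kb, chr5:120103631-120296350, in which 25 of 47 HindIII fragments were called, with 10 to 165 reads. Reads were highest at the Tbx3 promoter, with 72 and 71 at the fragments just upstream of it, were lowest, 10, at an intergenic fragment 693 kb from Lhx5, and were high again at Tbx5, where a fragment with Tbx5 exons beside the promoter had 69. The 2 promoter fragments were captured and these neighbours were not. The paper reports a higher background for pairs of captured fragments, so the read numbers are not directly comparable. By score from the Lhx5 bait, Tbx3 (170.81) was above its neighbours (99.98 and 98.65). Tbx5 (62.6) was below the fragment with its exons (82.95). Contact regions here are called fragments of a gene merged over gaps of up to 50 kb, a rule set after the data were seen.

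Further upstream, the promoter of Hrk, which encodes a pro-apoptotic BH3-only protein, was joined to Lhx5 over 2.26 Mb by 50 reads, with scores of 89.1 from Lhx5 and 105 from Hrk. Tesc, the gene of a calcium-binding protein, was joined over 2.40 Mb by 9 reads (scores 7.90 and 12.9), and Fbxw8, an F-box protein gene next to Hrk, by 6 reads from its own bait (score 5.11). Hrk thus had far more reads than either neighbour. In the opposite direction, 19.1 Mb downstream, Lhx5 was joined to the homeobox gene Uncx, which acts in the axial skeleton. There, all 9 HindIII fragments of a 24.9-kb region were called, with 4 to 19 reads. The Uncx promoter had 18 reads (scores 59.1 and 26.1), and an ultraconserved element captured beside it, labelled uce in the list, had 17 (54.8 and 66.7).

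The longest *cis* call of Lhx5 reached the promoter of Gsx2, a homeobox gene of the ventral forebrain, at 45.4 Mb with 4 reads and scores of 5.82 and 7.65. A *trans*-chromosomal call of 4 reads and score 11.5 joined Lhx5 to a fragment with exons of Pax7, a paired-box gene of muscle and neural progenitors, at chr4:139381192-139385621. Nearby, Lhx5 was joined to AC111115.1, 147 kb upstream (49 reads, scores 13.4 and 14.7), and to Tpcn1, an ion channel gene 155 kb downstream (7 reads, score 5.65 from Tpcn1). Thus the nearest promoter partners of Lhx5 scored lower than the T-box genes, Hrk and Uncx.

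Lhx1, needed for head and kidney formation, had 43 calls from a captured fragment of 1.20 kb, the shortest of the 10, at chr11:84338207-84339401. Of these, 38 lay upstream and 5 downstream. Its highest score, 83.7 with 37 reads, was at an unbaited fragment with exons of Tbx2, 1.31 Mb upstream. The neighbouring Tbx2 promoter, that of a T-box gene of heart and limb development, had 32 reads and scores of 51.8 and 42.4.

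Tbx4, the hindlimb and lung T-box gene next to Tbx2, was joined to Lhx1 at 1.36 Mb through its promoter with 11 reads (scores 14.7 and 17.4), while an unbaited fragment with a further Tbx4 start had 17 reads (score 33.0). The Tbx2 and Tbx4 contacts formed a region of 75.3 kb in which 14 of 24 HindIII fragments were called, with 5 to 37 reads. So the paralogues Lhx1 and Lhx5 were each joined to a neighbouring pair of T-box genes, Lhx1 to Tbx2 and Tbx4, and Lhx5 to their respective paralogues Tbx3 and Tbx5. That pattern was singled out after the values were seen.

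Upstream at 120 to 295 kb, the promoter partners of Lhx1 were AL603708.1 (13 reads, score 12.1), a uce element (16 reads, 7.97 and 5.33) and Mrm1, a mitochondrial methyltransferase gene (13 reads, 6.63 and 8.11). Aatf, a transcription cofactor gene, was 10.4 kb away with 92 reads but scores of 6.84 and 5.96. An unbaited fragment at a start of Hoxb3, a homeobox gene, 11.9 Mb away, had 4 reads. The contacts of Lhx1 over 10 Mb all rested on 4 reads.

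**Figure D2:**
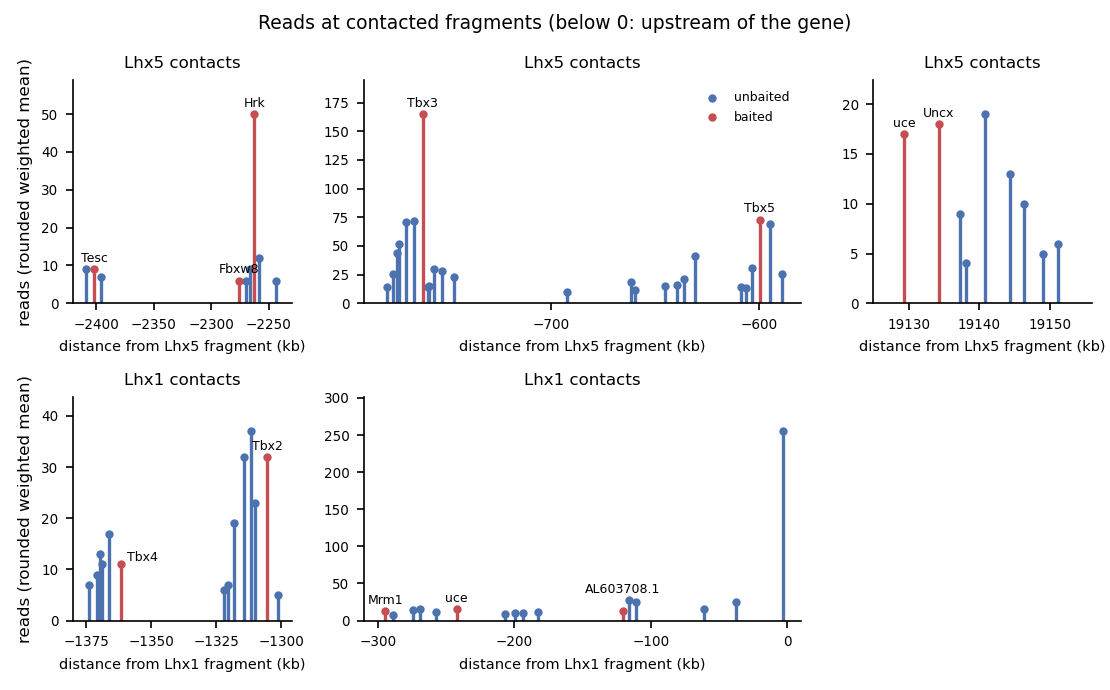
Read number (rounded weighted mean over replicates) at each fragment called with Lhx5 (top) or Lhx1 (bottom), against the distance in kb from the gene's fragment, negative upstream of the gene; red marks captured and blue uncaptured fragments, and each panel has its own axes and shows a part of the calls. Lhx5 peaks at Tbx3 (165 reads) and Tbx5 (73), Hrk stands out at 50 reads among its neighbours, and Lhx1 has a distal peak beside Tbx2 (37 reads). Red and blue read numbers are not directly comparable, since pairs of captured fragments have a higher background.

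Lhx2, a regulator of eye, forebrain and limb development, had 29 calls from chr2:38193888-38197083, and 18 of them (62.1%) spanned over 1 Mb. Its highest score was with Nr5a1, the nuclear receptor gene of gonads and adrenal glands, 374 kb away with 17 reads (scores 24.8 and 18.7). At 36.3 Mb, Lhx2 was joined to the promoters of the limb-patterning genes Hoxd12 (5 reads, scores 16.7 and 9.81), Hoxd10 (4 reads, 10.9 and 7.80) and Hoxd3 (3 reads, 5.20). A fragment listed as Gm14396, which also holds the start of Hoxd9, had 4 reads (10.9 and 6.33), and Hoxd3, at 36.4 Mb, was the longest *cis* contact of Lhx2.

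A uce element inside an exon fragment of Dlx1, a homeobox gene of forebrain interneurons, was joined to Lhx2 over 33.2 Mb by 4 reads (scores 9.88 and 7.76). Further far partners of Lhx2 were a fragment listed as 4930412O13Rik, which also holds a start of the zinc-finger gene Gata3, at 28.4 Mb with 4 reads (10.3 and 7.29), and Gm13330 at 20.2 Mb with 5 reads (14.2 and 9.83). Closer by were Crb2, a cell polarity gene, at 565 kb (7 reads, score 8.98), Psmb7, a proteasome subunit gene, at 305 kb (7 reads, 6.46) and Gm13584 at 25.7 kb (13 reads, 6). The contacts of Lhx2 over 10 Mb each rested on 3 to 5 reads, fewer than the 17 at the Nr5a1 promoter.

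Lhx2 was also the gene that joined LIM homeobox promoters to each other. It was joined to Lhx6, a gene of cortical interneurons, over 2.24 Mb by 6 reads and from both baits (scores 11.8 and 7.49). It was joined to Lmx1b, the gene of dorsal limb identity, over 4.69 Mb by 4 reads from the Lhx2 bait (score 7.07), and 2 unbaited fragments at the Lmx1b gene had 5 reads each (scores 13.1 and 13.1). Conversely the Lmx1b bait called an unbaited fragment beside Lhx2 with 4 reads (6.69). No other pair among the 10 genes was called, and these 3 lie on chromosome 2, as does Lhx3.

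Lmx1b had 15 calls from a fragment of 26.3 kb, chr2:33490829-33517082, and 10 of them (66.7%) spanned over 1 Mb. It shared 2 distant fragments with Lhx2: the uce element at Dlx1, 37.9 Mb from Lmx1b with 5 reads (scores 13.6 and 13.2), and Hoxd3, its longest contact at 41.0 Mb with 4 reads (9.32 and 5.75). Lmx1b calls of 3 reads each also reached exon fragments of Hoxd13, Hoxd12 and Hoxd9. At 2.01 Mb it was joined to an unbaited fragment 3.89 kb from the start of Prdm12, a gene of pain-sensing neurons, with 6 reads (score 10.9). The highest score of Lmx1b, 21.3 with 55 reads, was within its own gene, 19.3 kb away. Lhx6, from a fragment of 22.4 kb (chr2:35948870-35971257), had 4 calls, the others being Ggta1, a glycosyltransferase gene, at 642 kb (4 reads, score 5.72) and an unbaited fragment at 108 kb (13 reads, 6.54). So Lhx2 and Lmx1b shared partners in the Hoxd cluster and at Dlx1, and Lhx6 had none over 10 Mb.

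Lhx9, the paralogue of Lhx2 that is needed for the gonads, had 15 calls from chr1:140742605-140746251. Its longest promoter contact was with En1, a homeobox gene of the midbrain and limb, at 18.2 Mb with 5 reads (scores 10.9 and 10.8). Over 1.90 Mb it was joined to 3 adjacent unbaited fragments in Nr5a2, a nuclear receptor gene active in early embryos, at chr1:138843239-138849900, with 5 to 10 reads and scores up to 19.7. Lhx9 was joined to the Dennd1b promoter, a gene of vesicle trafficking, at 115 kb (11 reads, score 5.11) and to 5 further fragments in Dennd1b at 309 to 325 kb (9 to 15 reads, scores up to 14.9). Crb1, a polarity gene mutated in retinal disease, was joined to it at 527 kb with 4 reads (5.04).

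Lhx9 and Lhx2 shared 3 pairs of paralogues among their partners, Nr5a2 and Nr5a1, Crb1 and Crb2, and Dennd1b and Dennd1a, the last through an exon fragment of Dennd1a 403 kb from Lhx2 with 5 reads (score 6.45). En1 and most partners of Lhx2 had no such counterpart, and as with the T-box genes, the pairs were picked after the values were seen. The highest score of Lhx9, 20.7 with 152 reads, was at an unbaited fragment with a further Lhx9 start 6.37 kb away.

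Lhx8, which acts in cholinergic forebrain neurons and oocytes, had 17 calls from chr3:153990410-153993765. Its highest score was with Negr1, a neuronal adhesion gene, at 2.23 Mb with 15 reads (scores 27.0 and 20.6). At 267 to 381 kb it was joined to Slc44a5, a choline transporter-like gene (26 reads, scores 20.4 and 16.6), Cryz, an oxidoreductase gene (16 reads, 8.28 and 8.50), and Acadm, a fatty acid oxidation gene (7 reads, 8.56). The paralogues Lhx8 and Lhx6 had no partner gene in common.

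Isl1, which marks motor neurons and cardiac progenitors, had 13 calls from chr13:117098928-117102763. Its longest was with Fst, the gene of the activin antagonist follistatin, at 1.85 Mb with 11 reads (scores 13.5 and 17.5). Its highest score, 25.1 with 26 reads, belonged to 1 of 5 adjacent unbaited fragments, chr13:117488196-117505285, which lie 391 to 402 kb from Isl1 in an intergenic stretch and had 15 to 26 reads. Promoter partners closer than Fst were Parp8 at 713 kb (11 reads, 7.18 and 8.96) and Gm6404 at 158 kb (10 reads, 5.38). The intergenic group thus had more reads than any promoter joined to Isl1.

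Lhx3 and Lhx4, paralogues that act in pituitary and motor neuron development, had 12 and 4 calls. Lhx3, from chr2:26061072-26064947, was joined only from the partners' baits to the promoters of Notch1, the receptor gene, at 311 kb (9 reads, score 8.31), Egfl7, a secreted vascular factor gene, at 372 kb (8 reads, 5.76), Inpp5e, a ciliary phosphatase gene, at 197 kb (17 reads, 5.75), Nacc2, a BTB-domain gene, at 84.1 kb (17 reads, 5.99) and Lcn13, a lipocalin gene, at 507 kb (5 reads, 5.91), its longest *cis* call. Its highest score, 45.1 with 9 reads, came from a *trans*-chromosomal call to an intergenic fragment at chr5:52518241-52520560, which no other bait called. Lhx4, from a fragment of 19.8 kb (chr1:157578785-157598612), was joined to Ier5, an immediate early gene, at 643 kb, its longest and highest-scoring call (8 reads, 9.59), to Fam163a at 546 kb (6 reads, 6.06) and to 2 adjacent unbaited fragments at 495 and 498 kb (6 reads each). Neither paralogue had a *cis* call over 1 Mb.

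Homeobox genes stood at the far ends of many long contacts. Counting each partner fragment once per LIM homeobox gene, 54 promoter partners were found, uce elements included. Of these, 19 (35.2%, interval 23.8 to 48.5%) carried a symbol from 3 lists of developmental genes, against 4.57% of the ends of all promoter-promoter pairs. They divide into 12 entries for homeobox genes, 5 on the list of other developmental regulators (Tbx2, Tbx3, Tbx4 and Tbx5 among them) and 2 signalling genes (Fst and Notch1). Among the 12, Lhx2 and Hoxd3 are each counted under 2 LIM homeobox genes. All 12 homeobox partners were over 1 Mb away, and 4 of these entries are the 2 pairs within the family. Over 1 Mb, 16 of 26 promoter partners (61.5%, interval 42.5 to 77.6%) were on the lists, against 25.4% of the ends of all promoter-promoter pairs over 1 Mb or in *trans*. Within 1 Mb it was 3 of 28, namely Tbx3, Tbx5 and Notch1. Gata3 and Hoxd9 are not in these counts because the file gives their fragments other symbols, and the lists were made with results of these data known.

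The same held for fragments that had not been captured. Of 43 uncaptured fragments contacted over 1 Mb or in *trans*, 38 (88.4%, interval 75.5 to 94.9%) lay within 10 kb of an annotated coding start, against 58.2% of such fragments in the whole list. For 29 of them (67.4%, interval 52.5 to 79.5%) the nearest start was that of a listed developmental gene, against 34.5%. Calls next to Tbx2, Tbx4, Uncx, Hoxd and Lmx1b are among them.

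A contact between 2 captured promoters can be called from either bait. Of 52 promoter pairs with a LIM homeobox gene, 31 (59.6%, interval 46.1 to 71.8%) were called from both, against 27.5% of all promoter pairs. Over 1 Mb it was 20 of 24 pairs (83.3%, interval 64.1 to 93.3%), against 52.8% of all pairs over 1 Mb or in *trans*. The 31 pairs had the same read number from both ends, since the reads are shared, while the higher score was a median of 1.27 times the lower. Lhx5 and Tbx3 were the pair with the widest gap, 4.97 times.

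**Figure D3:**
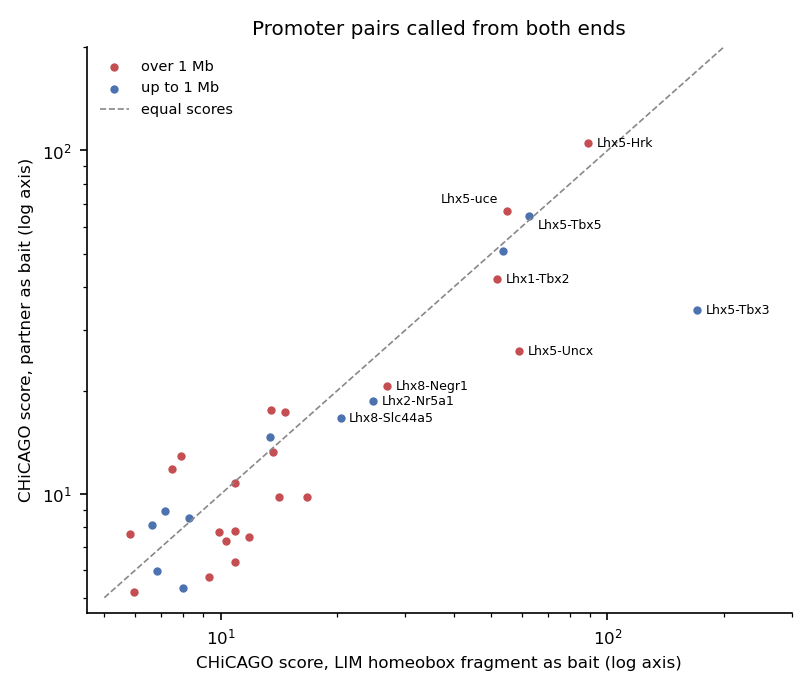
CHiCAGO score of the 31 promoter pairs called from both ends, with the LIM homeobox fragment as the bait (x) and the partner as the bait (y), on log axes; red pairs are over 1 Mb apart, blue pairs closer, and most pairs with a score over 20 are named. Most pairs lie near the dashed line of equal scores, and Lhx5 with Tbx3 (171 against 34.4) lies farthest below it. Lhx2 with Lhx6, both LIM homeobox genes, is drawn from either side, with its scores exchanged.

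The share of long contacts differed between the 10 genes. It ran from 0 of 4 calls for Lhx4 and 1 of 12 for Lhx3 to 18 of 29 for Lhx2 and 10 of 15 for Lmx1b, and most of the intervals overlap. Without Lhx5, which supplied 65 of the 214 calls, 41.6% of calls (62 of 149) were over 1 Mb or in *trans*, and the median *cis* distance was 496 kb. Without Lhx1 and Lhx5 it was 39.6% (42 of 106) with a median of 403 kb. The long share over all calls thus did not rest on these 2 genes. Most of the 26 long calls with at least 10 reads were of Lhx1 or Lhx5, however, and none was of Lhx2 or Lmx1b.

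**Figure D4:**
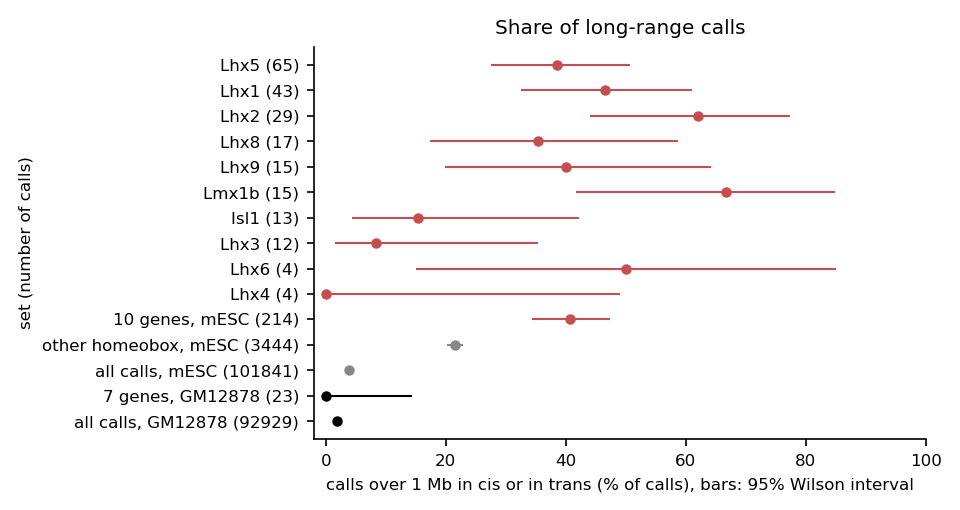
Share of calls over 1 Mb in *cis* or in *trans* (percent of calls), with 95% Wilson intervals as bars, for each LIM homeobox gene, the 10 together, other homeobox promoters and all calls in mESCs, and for the 7 human genes and all calls in GM12878; the number of calls is in parentheses. The 10 genes together are at 40.7%, other homeobox promoters at 21.5% and all mESC calls at 3.94%.

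The Hi-C library of mESCs, made without capture, held some of these contacts at coarser resolution. HOMER bin pairs were counted as interacting at a false discovery rate (FDR) under 0.05. Of the LIM homeobox calls under 1 Mb, 38.6% (49 of 127, interval 30.6 to 47.3%) lay within interacting pairs of 25-kb bins, against 11.5% of all calls under 1 Mb. This differed by gene: Lhx5 gave 24 of the 49 and Lhx1 10, while Isl1, Lhx3, Lhx4, Lhx6 and Lmx1b gave none. Without Lhx5 the share was 28.7% (25 of 87). The bin pair of Lhx5 and Tbx3 had 85 reads against 2.65 expected and that of Lhx5 and Tbx5 34 against 2.67. Many of the 49 calls share a bin pair, as those around Tbx3 do. Calls in the same bin pair share its Hi-C value and are not separate observations.

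Over 1 Mb and in *trans*, the share within interacting pairs of 1-Mb bins was 54.0% (47 of 87, interval 43.6 to 64.1%), against 57.2% of all such calls. By distance it was 41.5% (17 of 41, interval 27.8 to 56.6%) at 1 to 10 Mb, against 53.7% of all, and 65.9% (29 of 44, interval 51.1 to 78.1%) over 10 Mb, against 81.8% of all. The 87 calls fall in 24 bin pairs when each is listed under its gene, and 11 of those were interacting. All 25 long calls of Lhx5 were in such pairs, as were 12 of 18 of Lhx2, 9 of 10 of Lmx1b and both of Isl1. None of the 20 of Lhx1, the 6 of Lhx8, the 6 of Lhx9 or the 2 of Lhx6 was, nor was the *trans* call of Lhx3. Lhx1 and the Tbx2 region, and Lhx8 and Negr1, thus had CHiCAGO scores of 83.7 and 27.0 in bin pairs that the Hi-C list did not hold. Lhx1 and the Tbx2 region lie in adjacent 1-Mb bins, a pair that holds 16 of the 20 long calls of Lhx1. Whether the list covers adjacent bins was not checked, so absence from it says little there. Those 16 calls are among the 87 and the 41 above and the 62 below, so the shares of these carry the same limit. Without Lhx5 the share was 35.5% (22 of 62).

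**Figure D5:**
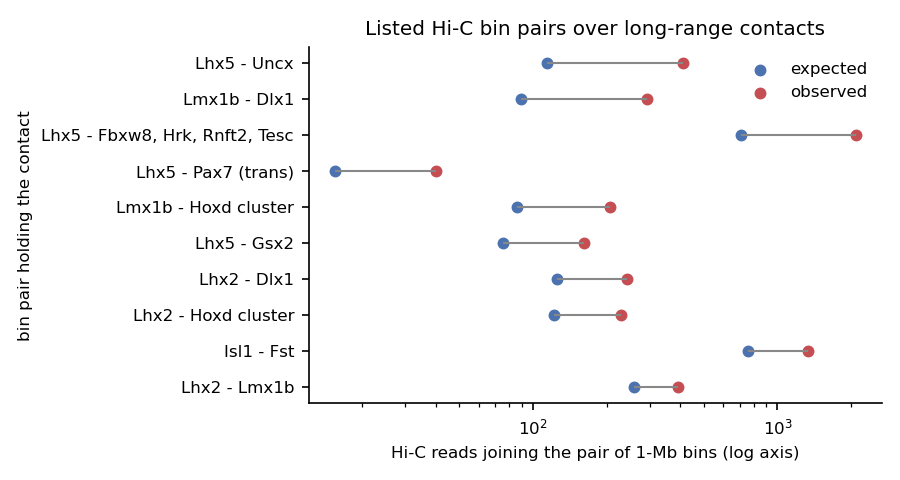
Observed (red) and expected (blue) Hi-C reads between the 1-Mb bins that hold long contacts of LIM homeobox genes, on a log axis, for the 10 distinct bin pairs in the Hi-C list, sorted by observed over expected and named by the nearest coding starts. Lhx5 and Uncx are at the top with 412 reads against 114 expected, and Lhx2 and Lmx1b at the bottom with 391 against 260.

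In GM12878 the same genes were joined to few loci. The 7 genes with calls were LHX1, LHX2, LHX4, LHX5, LHX6, LHX9 and LMX1B, and LHX3, LHX8 and ISL1 were in no call. None of the 23 calls spanned over 1 Mb or joined chromosomes, which allows a share of up to 13%, against 1.95% of all GM12878 calls. The median distance was 295 kb (all calls, 174 kb). A captured promoter was at the other end of 43.5% of the calls (10 of 23), 8 of which were made from the partner's bait. With the LIM homeobox fragment as the bait it was 2 of 15 (13.3%, interval 3.74 to 37.9%), against 29.4% of all calls. Species, cell type and capture design change together between the lists, so these cannot be told apart.

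LHX2 had 7 human calls, LHX4 6, LHX9 5, LHX6 2, and LHX1, LHX5 and LMX1B 1 each. The highest score in GM12878 was 13.2, for LHX2 and DENND1A at 83.3 kb with 14 reads, below the highest mESC score of 8 of the 10 genes. LHX5 was joined to RASAL1, a Ras regulator gene, at 339 kb (5 reads, score 6.77), and LHX6 to TTLL11, a tubulin ligase gene, at 136 kb (18 reads, 5.24) and to MORN5 with NDUFA8 at 68.3 kb (34 reads, 6.42). LHX4 was joined to TOR1AIP1 at 346 kb (11 reads, 6.92), CEP350 at 272 kb (4 reads, 6.16) and fragments in ACBD6. None of the 12 human partner symbols was on the developmental lists, and none of the 23 calls reached a T-box or HOX gene. The share of listed genes over all GM12878 promoter pairs was not computed. All 23 calls were within 1 Mb, where 3 of 28 promoter partners were listed in mESCs, so no contrast is drawn from these few symbols.

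Crb2 was the 1 partner symbol found in both species for the same gene, of 54 partner symbols in mESCs (1.85%) and 12 in GM12878 (8.33%). The overlap over all genes in both lists was not computed, so it cannot be said whether 1 is few or many. With a score or a read number of at least 10, 0 symbols were shared. LHX2 and CRB2 were 656 kb apart in the human genome, with 7 reads and a score of 5.58. By the genes that partner fragments overlap in the annotation of each build, 3 were shared: Crb2 and Dennd1a with Lhx2, and Dennd1b with Lhx9. Human LHX9 had 4 of its 5 calls inside DENND1B introns at 295 to 394 kb, where mouse Lhx9 had 6 of 15 in Dennd1b at 115 to 325 kb. Human LHX2 had 5 of 7 calls in DENND1A, mouse Lhx2 1 of 29 in Dennd1a. In both species Lhx2 and Lhx9 thus contacted these trafficking genes, which are their neighbours.

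Other genes of the LIM family and their cofactors had shorter contacts in mESCs. Lmx1a, the paralogue of Lmx1b, had 3 calls with a median of 222 kb, Lmo1 had 6 and Lmo2 had 1. The cofactor genes Ssbp2, Ssbp3 and Ssbp4 had 9, 22 and 20 calls, and Rlim, the gene of a ubiquitin ligase acting on Ldb1, had 2. Of their calls together, 1 spanned over 1 Mb, joining Ssbp4 to Unc13a at 1.07 Mb. Isl2, Lmo3, Lmo4, Ldb1 and Ldb2 were in no mESC call. In GM12878, LMO1 to LMO4 had 7, 5, 1 and 3 calls, LDB1 3, LDB2 1, SSBP2 2, SSBP3 5, SSBP4 6 and RLIM 3, all under 1 Mb, and ISL2 and LMX1A had none.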

How the data were processed

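Promoter Capture Hi-C lists of mESCs and GM12878 and Hi-C lists of mESCs were used. The authors processed reads with HiCUP (Bowtie 1.1.0 in the submitters' notes) against mm9 or hg19 and called contacts jointly on all replicates with CHiCAGO under default settings. The deposited read number is a score in kind, a rounded weighted mean over replicates, and the CHiCAGO score is a soft-thresholded −log weighted p-value that the authors kept from 5. For Hi-C, the authors deposited the count of reads joining 2 bins, the expected number, which is an estimated count, and an FDR, a p-value adjusted by HOMER (4.7 in those notes); a further 10 columns of values were not used. Depth was limited to the number of calls, since reads per replicate were not used here.

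Symbols were matched without transcript suffixes. Distances ran between fragment midpoints. All listed fragments of both cell types (52640 in mm9, 56775 in hg19) matched an in-silico HindIII digest of the reference. A call was within a Hi-C bin pair when both midpoints lay in its bins. Genes at partner fragments came from GENCODE annotations of the same builds. No test was run: shares have Wilson 95% intervals, and a count of 0 is given with the share that 3 counts would make. The counting was tested on simulated data (Python 3.11.15).

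The members and lists were chosen with earlier results of these data known. The genes named are all 10 members, their promoter partners, the highest-scoring and longest *cis* call, every *trans* call, pairs and shared fragments of members, listed LIM relatives, and partners in both species; other names were added after their values were seen, and a few items the rule would name are not reported here. Alternatives were score and read minimums of 10, pairs counted once, the member as bait, fragments with 1 symbol, the browser list, and other Hi-C thresholds.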

Additional observations from a re-analysis of the deposited data

How the results depend on the processing

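No paired analysis was possible because each deposited list combines the replicates of its cell type, so the replicate numbers of the labels meet no values of their own, and for the same reason no replicate could be left out. With a score of at least 10, LIM homeobox genes kept 105 of 214 mESC calls, 15 of 31 promoter pairs called from both ends, 2 of 23 GM12878 calls and 0 shared partner symbols, and 68.4% of calls under 1 Mb were within Hi-C bin pairs instead of 38.6%. With at least 10 reads there were 134 mESC calls, 31.3% with a promoter partner, 19.4% over 1 Mb or in *trans* (40.7% otherwise), a median distance of 356 kb, 18 pairs called from both ends and 0 shared partner symbols. Long contacts thus often rested on few reads. Counting each fragment pair once, or taking the browser list, gave 28.4% with a promoter partner. With the member on the bait only, it was 22.9%, with 15 GM12878 calls and 0 shared symbols. Fragments whose only symbol is a member's left 8 GM12878 calls and 0 shared symbols. With every listed Hi-C bin pair, 55.9% of calls under 1 Mb were within one. The following were chosen after seeing the data. Without Lhx5, the median distance was 496 kb and the Hi-C shares 28.7% under 1 Mb and 35.5% over 1 Mb or in *trans*. Without Lhx1 and Lhx5 there were 106 calls, 47.2% with a promoter partner, a median of 403 kb, 23.4% of calls under 1 Mb within Hi-C bin pairs and 16 pairs called from both ends. The other 52 values stayed within 1.5 times (counts) or within the 95% interval (shares and medians).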
